A study of Mus musculus and Rattus norvegicus with 51 samples.

Results

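The 9 genes described here are ones that transforming growth factor beta (TGF-β) or bone morphogenetic protein (BMP) signals are known to switch on, or that act on the same pathway. They are Id1, Id2, Id3, Id4, Smad6, Smad7, Smad9, Bambi and Skil, and only some of them encode inhibitors of the pathway itself. They were taken by name, as a fixed list with no cut-off on a measured value and with earlier results of these data known, out of 28589 gene symbols found in at least 1 of 3 count tables. All 9 have a row and were tested in both liver tables. The table of the cultured cells holds 8 of them, all tested, and Skil was not analysed in those cells. The study measured messenger RNA by RNA sequencing in 51 libraries, to compare redox forms of HMGB1 (high-mobility group box-1, a nuclear protein that injured cells release as a danger signal) in liver fibrosis and its regression. The forms are labelled [H], [O] and [SO3].

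Every library is labelled male. Rat HSC-T6 cells, a single immortalised hepatic stellate cell line labelled wild type, received [H], [O] or [SO3] HMGB1, or bovine serum albumin (BSA), for 6 hours (n = 3 libraries each). Wild-type mice in a fibrosis arm received carbon tetrachloride (CCl4), a hepatotoxin that causes fibrosis, for 4 weeks together with [H] HMGB1, [O] HMGB1 or BSA (n = 3 each). Wild-type mice in a resolution arm, labelled as regressing for 1 week, received [SO3] HMGB1, an HMGB1 antibody or BSA (n = 3 each). In a last set, wild-type mice and Hmgb1ΔHepΔMye mice, which lack Hmgb1 in the compartments abbreviated Hep and Mye, received CCl4 (n = 4 per genotype group) or MO (n = 3 per group) for 4 weeks. Every Hmgb1ΔHepΔMye mouse was also given either WT HMGB1 or Δ[O] HMGB1, so no library shows the deletion alone, and the wild-type mice list no such construct. The deposited name of this set includes AAV8 without saying which mice received it. Differences from wild-type mice therefore cannot be split between genotype and construct. Libraries are numbered as labelled and values run in that order, so the CCl4 libraries are 1, 3, 4 and 5 with WT HMGB1 and 1, 2, 3 and 5 with Δ[O] HMGB1. The labels do not spell out MO, name the Cre drivers or give ages. They also do not say whether libraries came from separate animals or cultures, and a p-value therefore speaks of library-to-library spread, which may be technical.

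ID proteins are helix-loop-helix proteins without a DNA-binding region that hold E proteins such as TCF3, TCF4 and TCF12 away from DNA, and their genes are classic targets of BMP receptors and SMAD1/5. SMAD6 and SMAD7 bind activated receptors and block the receptor SMADs, SMAD6 mainly on the BMP side and SMAD7 on both sides. SMAD9 (also SMAD8) is a weakly active BMP receptor SMAD whose gene BMP induces, BAMBI is a pseudoreceptor without a kinase domain, and SnoN, the product of Skil, is a nuclear co-repressor of SMAD2/3/4 target genes. In liver, BMP6 from endothelial cells drives Id1, Smad6 and Smad7 together with hepcidin in hepatocytes, and TGF-β acts on stellate cells, where BAMBI is known to restrain it.

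In Hmgb1ΔHepΔMye livers given WT HMGB1 and MO, 4 members rose and 2 fell relative to wild-type livers given MO, and the promoters of 5 of these 6 genes were in the RefSeq promoter table (build GRCm38.p6, the same as mm10). They are shown because each of these genes passed in that comparison, Smad9 lower and the other 4 higher; bases inside the annotated gene were left out for Smad6 and Smad9. Capitals mark GGCGCC, a palindromic GC-rich element that BMP SMADs are known to bind, and CAGAC or its complement GTCTG, the SMAD box.
Id2: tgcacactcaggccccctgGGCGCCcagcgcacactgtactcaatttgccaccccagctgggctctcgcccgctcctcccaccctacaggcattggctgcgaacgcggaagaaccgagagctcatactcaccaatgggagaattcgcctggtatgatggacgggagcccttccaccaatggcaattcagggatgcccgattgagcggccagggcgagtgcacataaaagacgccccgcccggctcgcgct
Id3: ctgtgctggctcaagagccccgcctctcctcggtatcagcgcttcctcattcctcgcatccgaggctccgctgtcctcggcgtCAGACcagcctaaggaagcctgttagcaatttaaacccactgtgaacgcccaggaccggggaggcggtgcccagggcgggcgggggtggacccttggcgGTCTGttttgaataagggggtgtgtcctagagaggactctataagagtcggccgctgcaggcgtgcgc
Id4: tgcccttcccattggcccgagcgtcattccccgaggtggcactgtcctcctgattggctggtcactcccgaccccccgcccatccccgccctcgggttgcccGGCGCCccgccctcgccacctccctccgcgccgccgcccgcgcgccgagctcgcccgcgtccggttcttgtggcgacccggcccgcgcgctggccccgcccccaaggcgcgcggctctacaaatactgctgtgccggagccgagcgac
Smad6: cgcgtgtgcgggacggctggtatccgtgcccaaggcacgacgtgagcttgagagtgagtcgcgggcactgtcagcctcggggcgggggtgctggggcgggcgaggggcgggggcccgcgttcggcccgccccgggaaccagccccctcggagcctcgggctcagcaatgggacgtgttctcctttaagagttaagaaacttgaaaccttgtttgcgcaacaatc
Smad9: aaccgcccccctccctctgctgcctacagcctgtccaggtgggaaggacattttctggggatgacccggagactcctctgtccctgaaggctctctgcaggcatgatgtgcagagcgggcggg
The Id2 stretch lies at chr12:25096093-25096342 on the minus strand, Id3 at chr4:136143572-136143821 on the plus strand, Id4 at chr13:48260866-48261115 on the plus strand, Smad6 at chr9:64022086-64022309 on the minus strand, and Smad9 at chr3:54755332-54755454 on the plus strand. Over a window of 250 bases per gene, on both strands, GGCGCC occurs 1 time in Id2, 1 time in Id4 and 1 time in Smad9. The Smad9 match falls within the 127 bases of its window that overlap the annotated gene and are not shown. It therefore does not lie before the annotated start. The Smad6 window overlaps its gene by 26 bases. CAGAC occurs 2 times in Id3, and neither motif occurs in the Smad6 window. The motifs do not overlap each other. Of 32851 promoters of the same length, 9.59% hold GGCGCC and 42.2% hold CAGAC, so these matches are a description of the sequence alone. The genes themselves lie at chr2:152736251-152737410 (Id1), chr12:25093799-25096092 (Id2), chr4:136143822-136145392 (Id3), chr13:48261116-48266028 (Id4), chr9:63953076-64022085 (Smad6), chr3:54755455-54801662 (Smad9) and chr3:31095058-31122923 (Skil). Only Id4 shares annotated exon bases with other genes: 171 with Gm49291 and 82 with A330033J07Rik, both on the opposite strand, and whether the authors counted by strand is not given in the sources used here.

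Gene counts per library ranged over 11752661 to 16981255 for the cells, 8355714 to 16327132 for the livers of the fibrosis and resolution arms and 22598631 to 39323123 for the CCl4 and MO set. Levels are CPM (gene counts scaled to a common library size of 1e6 counts) after TMM scaling. Differences are log2 fold changes from edgeR's quasi-likelihood test fitted across all genes of a table. Their standard errors (SE) were derived as the absolute log2 fold change over the square root of the test's F statistic. A gene passed when its Benjamini-Hochberg adjusted p was below 0.05. The HSC-T6 libraries carried stellate or myofibroblast markers at 49100 to 70500 CPM summed over 10 genes, mostly Col1a1 (27500 to 41900 CPM) and Col3a1 (14900 to 22500 CPM). Lrat, which marks quiescent stellate cells, was at 0 counts in all 12 libraries, and Reln had 2 counts in total. Des (23.5 to 33.8 CPM) and Col1a2 (42.4 to 78.4 CPM) were low. Hepatocyte, endothelial and macrophage marker sums in these cells did not exceed 3.71 CPM, and cholangiocyte markers, mostly Sox9, summed to 11.1 to 32.7 CPM. The mouse build mm10 is noted for these rat libraries too, and its effect on their levels was not tested. Every liver library carried hepatocyte markers at 18500 CPM or more, summed over 8 genes. Hmgb1 had 63.9 to 74.7 CPM in Hmgb1ΔHepΔMye livers with WT HMGB1 and MO and 131 to 215 CPM in those with Δ[O] HMGB1 and MO, against 72.8 to 77.3 CPM in wild-type livers with MO. After CCl4 it had 44.9 to 74.1 CPM with WT HMGB1 and 61.7 to 92.3 CPM with Δ[O] HMGB1, against 57.2 to 107 CPM in wild-type livers. The tables do not separate construct from endogenous reads or one cell type from another, so Hmgb1 is no check of the deletion.

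With [O] HMGB1, 5 of the 8 members fell in HSC-T6 cells and 1, Id3, rose relative to BSA. In this comparison 43.9% of all 10140 genes tested passed (23.7% higher, 20.2% lower), so the members' share (6 of 8) has to be read against a broad response, and their median log2 difference was -0.72 against -0.01 for all genes. Among the ID genes, Id4 had 11.9, 12.7 and 11.1 CPM with [O] HMGB1, against 29.3, 28.7 and 34.2 CPM with BSA. Every [O] library lay far below every BSA library (log2 -1.36, SE 0.09, edgeR adjusted p = 2.74e-12). Id3 had 75.1, 77.2 and 79.0 CPM with [O] HMGB1, against 50.8, 53.0 and 57.6 CPM with BSA. It was the single member that rose, again without overlap (log2 0.52, SE 0.06, edgeR adjusted p = 3.72e-08). Id2, at a low level in these libraries, had 4.34, 5.41 and 4.89 CPM with [O] HMGB1, against 5.92, 6.74 and 7.18 CPM with BSA (log2 -0.43, SE 0.12, edgeR adjusted p = 0.00647). Id1 did not pass and its libraries overlapped: it averaged 7.92 ± 0.195 CPM with [O] HMGB1 and 7.42 ± 2.63 CPM with BSA (SD, n = 3 each; edgeR adjusted p = 0.6).

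The other members that fell with [O] HMGB1 were the BMP-side inhibitor Smad6 and 2 genes with few counts. Smad6 had 4.47, 3.75 and 3.60 CPM with [O] HMGB1, against 8.23, 8.09 and 7.44 CPM with BSA, with a wide gap between the groups (log2 -1.01, SE 0.13, edgeR adjusted p = 7.68e-07). Bambi had 6, 14 and 9 counts with [O] HMGB1, against 24, 14 and 20 counts with BSA, and 0.612 ± 0.263 CPM with [O] HMGB1 against 1.45 ± 0.393 CPM with BSA (SD, n = 3 each; log2 -1.22, SE 0.34, edgeR adjusted p = 0.00551). Smad9 had only 4, 5 and 2 counts with [O] HMGB1, against 13, 11 and 5 counts with BSA (log2 -1.60, SE 0.53, edgeR adjusted p = 0.0162). The Smad9 call rested on few reads and was lost without BSA library 1 (edgeR adjusted p = 0.0735), BSA library 2 (0.0532) or [O] library 3 (0.0626), the range over all alternatives being 0.0101 to 0.0735. Smad7, the broad inhibitor, had 41.9, 41.5 and 37.8 CPM with [O] HMGB1, against 39.1, 35.1 and 39.6 CPM with BSA, and did not pass (log2 0.09, SE 0.07, edgeR adjusted p = 0.273).

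[SO3] HMGB1 gave another pattern: Id4, Smad6 and Id3 fell and Smad7 rose relative to BSA, in a comparison in which 63.3% of all genes passed (31.1% higher, 32.2% lower). The 4 of 8 members that passed are thus no larger a share than among all genes, and their median log2 difference was -0.38 against -0.02. Id4 had 14.9, 16.3 and 12.7 CPM with [SO3] HMGB1 (log2 -1.07 relative to BSA, SE 0.09, edgeR adjusted p = 9.07e-11). Smad6 had 3.96, 3.08 and 3.78 CPM with [SO3] HMGB1 (log2 -1.14, SE 0.13, edgeR adjusted p = 5.92e-08). Every [SO3] library of either gene lay below every BSA library. Id3 had 38.7, 43.0 and 35.8 CPM with [SO3] HMGB1, all below the lowest BSA library (log2 -0.45, SE 0.06, edgeR adjusted p = 5.78e-07). Smad7 had 48.6, 52.3 and 55.1 CPM with [SO3] HMGB1, all above the highest BSA library (log2 0.46, SE 0.07, edgeR adjusted p = 1.55e-06). Id1, Id2, Smad9 and Bambi did not pass, with log2 differences of 0.19, 0.01, -0.85 and -0.31. Smad9 stood at 1, 10 and 9 counts with [SO3] HMGB1, so that its ratio to BSA is poorly fixed. Id1 passed without BSA library 3 alone (edgeR adjusted p = 0.0256, range over all alternatives 0.0256 to 0.596).

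**Figure D1:**
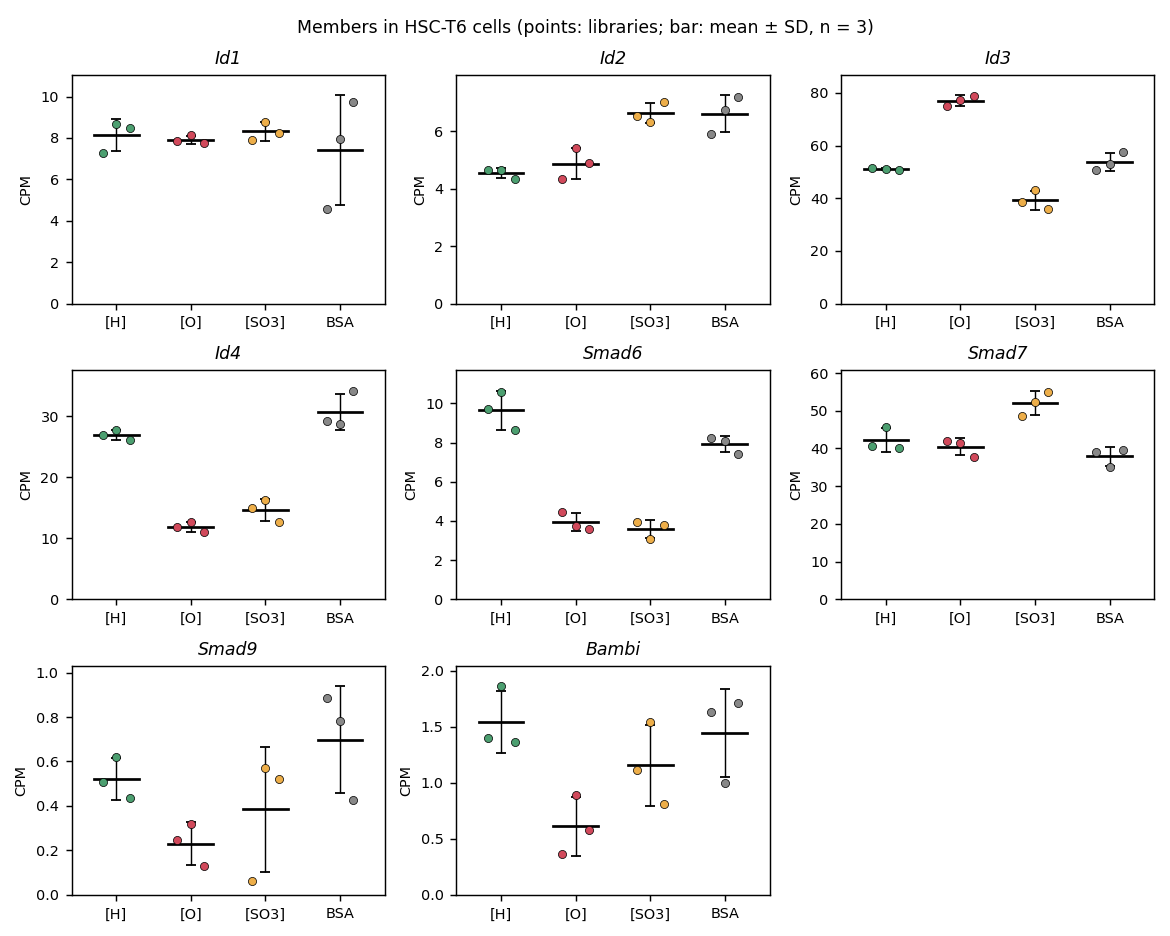
Levels of the 8 members in HSC-T6 cells, in CPM on linear axes that start at 0, for [H], [O] and [SO3] HMGB1 and BSA; points are libraries and bars give the mean ± SD (n = 3). Id4 and Smad6 are low with both [O] and [SO3] HMGB1, and Id3 lies at 75.1 to 79.0 CPM with [O] HMGB1 and at 35.8 to 43.0 CPM with [SO3] HMGB1, on either side of BSA.

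Set directly against [O] HMGB1, [SO3] HMGB1 gave higher Id2, Smad7, Id4 and Bambi and lower Id3 (5 of 8 members, against 59.2% of all genes, 29.1% higher and 30.0% lower). Id3 showed the widest separation of these, at 39.2 ± 3.59 CPM with [SO3] HMGB1 and 77.1 ± 1.94 CPM with [O] HMGB1 (SD, n = 3 each; log2 -0.98, SE 0.06, edgeR adjusted p = 2.37e-13). Id2 averaged 6.64 ± 0.355 CPM with [SO3] HMGB1 and 4.88 ± 0.532 CPM with [O] HMGB1 (log2 0.45, SE 0.12, edgeR adjusted p = 0.00236). Smad7 averaged 52.0 ± 3.26 CPM with [SO3] HMGB1 and 40.4 ± 2.24 CPM with [O] HMGB1 (log2 0.36, SE 0.06, edgeR adjusted p = 2.65e-05). The Id4 and Bambi differences (log2 0.29 and 0.92) came from groups that overlap. Id4 lost its call without [O] library 3 (edgeR adjusted p = 0.0568) or [SO3] library 2 (0.0932; range over all alternatives 0.00104 to 0.0932), and Bambi without [O] library 1 (0.139), [O] library 3 (0.0604) or [SO3] library 2 (0.162) and with DESeq2 (0.051; range 0.00792 to 0.162). Smad6 did not pass between these forms (log2 -0.13, SE 0.15), and Smad9 passed without [SO3] library 1 alone (0.0438; range 0.0438 to 0.68).

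With [H] HMGB1, 1 of 8 members passed relative to BSA, against 0.799% of all genes (0.316% higher, 0.483% lower). At an unadjusted p below 0.05 in edgeR's test there were 4 of 8 members, and 1713 of all 10140 genes. Id2 was the member that passed, at 4.64, 4.64 and 4.34 CPM with [H] HMGB1, against 5.92, 6.74 and 7.18 CPM with BSA (log2 -0.53, SE 0.13, edgeR adjusted p = 0.0444). Its groups do not overlap, yet its adjusted p rose above 0.05 without any single library other than BSA library 1 (up to 0.203; range over all alternatives 0.0192 to 0.203), and DESeq2 called no member here. Smad6 had 9.73, 10.6 and 8.62 CPM with [H] HMGB1, all above BSA, but did not pass (log2 0.28, SE 0.11, edgeR adjusted p = 0.206). Id4 had 26.9, 27.8 and 26.1 CPM with [H] HMGB1, all below BSA. Smad7 had 40.6, 45.8 and 40 CPM with [H] HMGB1, all above BSA, and neither gene passed. With [O] HMGB1, 4 of 8 members differed from [H] HMGB1 (40.8% of all genes, 21.9% higher and 19.0% lower), namely Id3 (log2 0.59), Id4 (-1.17), Smad6 (-1.29) and Bambi (-1.33). With [SO3] HMGB1, 5 of 8 differed from [H] HMGB1 (63.4% of all genes, 31.5% higher and 31.9% lower), namely Id2 (0.55), Smad7 (0.30), Id3 (-0.38), Id4 (-0.88) and Smad6 (-1.42). These comparisons and those with BSA share libraries and are not independent of each other.

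**Figure D2:**
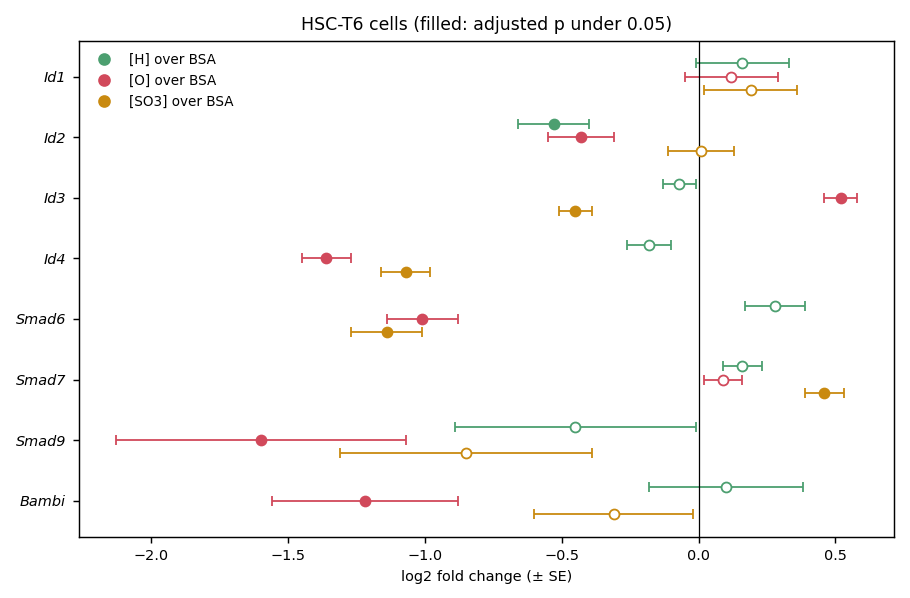
Log2 fold changes (x axis, ± SE) of the 8 members in HSC-T6 cells for [H], [O] and [SO3] HMGB1, each over BSA; filled symbols passed at an adjusted p below 0.05. Id3 lies at 0.52 for [O] HMGB1 and at -0.45 for [SO3] HMGB1, while Id4 and Smad6 lie below -1 for both.

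Other genes of the pathway also passed in these cells. With [O] HMGB1 this has to be read against 43.9% of all genes passing (23.7% higher, 20.2% lower). With [O] HMGB1, 3 of 7 tested ligands rose and 3 fell relative to BSA: Bmp6 rose to 96.2 CPM, against 37.2 CPM with BSA (log2 1.37), while Tgfb3 (log2 -1.29) and Bmp4 (-0.61) fell. The receptors Tgfbr2 (0.68), Bmpr2 (0.47) and Tgfbr3 (0.41) were the 3 of 10 that rose and none fell. Among 9 tested extracellular antagonists, 4 rose and 3 fell, with Fst (1.09) higher and Chrd (-0.62) lower. Of 8 tested intracellular inhibitors outside the 9 members, 6 rose and none fell, among them the co-repressor Tgif1 (0.80), the receptor phosphatase subunit Ppp1r15a (0.74) and Ldlrad4 (0.73). Other known targets split into 5 higher and 4 lower of 10, with Junb at 245 CPM with [O] HMGB1 and 57.5 CPM with BSA (log2 2.09) and Hey1 lower (-2.81).

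With [SO3] HMGB1 the other targets again went both ways relative to BSA, 5 higher and 3 lower of 10, with Junb at log2 1.64, Atoh8 at -2.32 and Hey1 at -1.42. In this comparison 63.3% of all genes passed (31.1% higher, 32.2% lower). Of the 8 other intracellular inhibitors 6 rose and 1 fell, led by Ppp1r15a (1.29), the antiproliferative factor Tob1 (1.14) and Tgif1 (0.57). Of 7 ligands 3 rose and 2 fell, with Bmp2 higher (0.84) and Inhba (-0.93) and Tgfb3 (-0.64) lower. Among the E-protein partners of the ID proteins, with [O] HMGB1 Tcf12 (0.37) and Tcf4 (0.34) rose, and with [SO3] HMGB1 Tcf4 (-0.60), Tcf3 (-0.31) and Tcf12 (-0.13) all fell. Proliferation markers moved with the [SO3] form too, at 461 to 495 CPM summed over 6 genes with [SO3] HMGB1 and 917 to 987 CPM with BSA, and their part in the members' changes was not tested.

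In wild-type livers, Id1, Bambi and Id4 rose and Smad9 fell with CCl4 relative to MO, 4 of 9 members in a comparison in which 46.3% of all 14129 genes tested passed (22.8% higher, 23.5% lower). Id1 had 17.0, 21.9, 20.8 and 20.2 CPM after CCl4, against 2.43, 3.44 and 4.25 CPM after MO. Its lowest CCl4 library was thus well above its highest MO library (log2 2.57, SE 0.43, edgeR adjusted p = 0.000103), and the call held without any single library. Bambi had 4.58, 5.15, 4.70 and 4.11 CPM after CCl4, against 1.77, 2.95 and 3.19 CPM after MO (log2 0.82, SE 0.22, edgeR adjusted p = 0.00458). Smad9 went down, with 12.2, 6.34, 9.10 and 16.9 CPM after CCl4, against 25.3, 35.2 and 22.7 CPM after MO (log2 -1.32, SE 0.34, edgeR adjusted p = 0.00394). Neither gene overlapped between the groups. In bulk liver, a change in the number of cells of a type and a change in RNA per cell cannot be told apart. Id4 was scarce, with 22 to 32 counts after CCl4 and 4 to 13 counts after MO (log2 1.13, SE 0.40, edgeR adjusted p = 0.0255), and lost its call without MO library 1 (0.108), MO library 2 (0.113) or CCl4 library 4 (0.0534; range over all alternatives 0.00182 to 0.113).

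Smad7 just missed the threshold in the same comparison, at 10.8, 12.4, 13.6 and 14.9 CPM after CCl4 and 6.99, 9.23 and 9.61 CPM after MO (log2 0.59, SE 0.25, edgeR adjusted p = 0.0604). Its groups do not overlap, and 5 of the other settings called it, the adjusted p ranging from 0.00164 to 0.218. Id2, Id3, Smad6 and Skil did not pass in wild-type livers (log2 -0.13, 0.32, 0.26 and 0.32). With library totals in place of TMM factors, which shifts the median of all genes by 0.453 to the CCl4 side, 8 members passed. The stellate or myofibroblast markers, of which 10 of 10 rose, summed to 440 to 945 CPM in these CCl4 livers and 86.1 to 159 CPM in the MO livers, and hepatocyte markers, of which 6 of 8 fell, to 85800 to 126000 CPM after CCl4 and 154000 to 176000 CPM after MO. Their part in the members' changes was not tested.

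In Hmgb1ΔHepΔMye livers given WT HMGB1, Id1, Bambi and Skil rose and Id2 and Id3 fell with CCl4 relative to MO (5 of 9 members, against 47.3% of all genes, 23.3% higher and 24.0% lower). Skil had 26.2, 29.4, 20.6 and 23.8 CPM after CCl4, against 10.2, 12.2 and 17.1 CPM after MO, a clean separation (log2 0.92, SE 0.18, edgeR adjusted p = 0.000361). Id3 had 55.1, 43.0, 37.5 and 33.6 CPM after CCl4, against 71.4, 80.9 and 81.9 CPM after MO (log2 -0.89, SE 0.27, edgeR adjusted p = 0.0102). Id2 had 133, 97.5, 133 and 126 CPM after CCl4, against 153, 190 and 164 CPM after MO (log2 -0.47, SE 0.16, edgeR adjusted p = 0.0196). Both ID genes were lower in every CCl4 library than in any MO library. The Id2 call was lost without MO library 2 (edgeR adjusted p = 0.102) or CCl4 library 3 (0.0725; range over all alternatives 0.0154 to 0.403). With library totals in place of TMM factors, which shifts the median of all genes by 0.269 to the CCl4 side, Id2 had an adjusted p of 0.403 and Id3 of 0.116 (Id3 range 0.00276 to 0.116). Bambi had 3.74, 4.78, 5.55 and 5.56 CPM after CCl4, against 3.01, 2.34 and 2.74 CPM after MO (log2 0.86, SE 0.21, edgeR adjusted p = 0.00281). Id1 had 14.4, 8.74, 19.5 and 16.3 CPM after CCl4, against 6.51, 8.78 and 5.00 CPM after MO. Its groups touch at a single library each (log2 1.13, SE 0.40, edgeR adjusted p = 0.0251), and the call was lost without MO library 1 (0.0725), MO library 3 (0.0923) or CCl4 library 4 (0.0642; range 0.00674 to 0.0923). Smad9 did not pass (log2 0.49, edgeR adjusted p = 0.272) but did without MO library 3 (0.0218; range 0.0218 to 0.662). In this comparison 10 of 10 stellate or myofibroblast markers rose, with sums of 1560 to 2250 CPM after CCl4 and 136 to 187 CPM after MO. Macrophage markers (8 of 9 higher) summed to 1310 to 1410 CPM after CCl4 and 407 to 654 CPM after MO, and hepatocyte markers (5 of 8 lower) to 84700 to 94900 CPM after CCl4 and 105000 to 154000 CPM after MO. Proliferation markers (6 of 6 higher) summed to 221 to 357 CPM after CCl4 and 20.4 to 22.5 CPM after MO, and the part of these lists in the members' changes was not tested.

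In Hmgb1ΔHepΔMye livers given Δ[O] HMGB1, 3 of 9 members passed between CCl4 and MO, against 24.2% of all genes (12.9% higher, 11.4% lower): Id1 and Bambi rose and Id2 fell. Id1 had 8.64, 10.6, 23.7 and 6.62 CPM after CCl4, against 2.94, 3.54 and 7.70 CPM after MO, with overlap and with 1 CCl4 library far above the others (log2 1.39, SE 0.40, edgeR adjusted p = 0.0176). Bambi had 3.85, 4.81, 4.15 and 2.80 CPM after CCl4, against 2.73, 2.49 and 2.07 CPM after MO (log2 0.69, SE 0.22, edgeR adjusted p = 0.0251). Id2 averaged 128 ± 21.2 CPM after CCl4 (SD, n = 4) and 175 ± 14.8 CPM after MO (SD, n = 3), without overlap (log2 -0.45, SE 0.16, edgeR adjusted p = 0.0421). No member passed when the fit held these 2 groups alone. Id1 also lost its call without CCl4 library 3, the high one (0.0682), MO library 1 (0.086) or MO library 2 (0.0876; range over all alternatives 0.00144 to 0.0876). Bambi lost it without CCl4 library 2 (0.0675), MO library 2 (0.0679) or MO library 3 (0.0998; range 0.00552 to 0.0998), and Id2 without any 1 MO library (0.0642 to 0.141), CCl4 library 1 (0.0903) or CCl4 library 2 (0.167; range 0.0287 to 0.227). Skil, Smad9 and Id3 had log2 differences of 0.17, 0.04 and 0.04 here. Stellate or myofibroblast markers (9 of 10 higher) summed to 591 to 1420 CPM after CCl4 and 127 to 207 CPM after MO, proliferation markers (6 of 6 higher) to 94.8 to 369 CPM after CCl4 and 12.5 to 23.4 CPM after MO, and hepatocyte markers (1 of 8 lower) to 97100 to 119000 CPM after CCl4 and 127000 to 131000 CPM after MO. Their part in these changes was not tested.

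**Figure D3:**
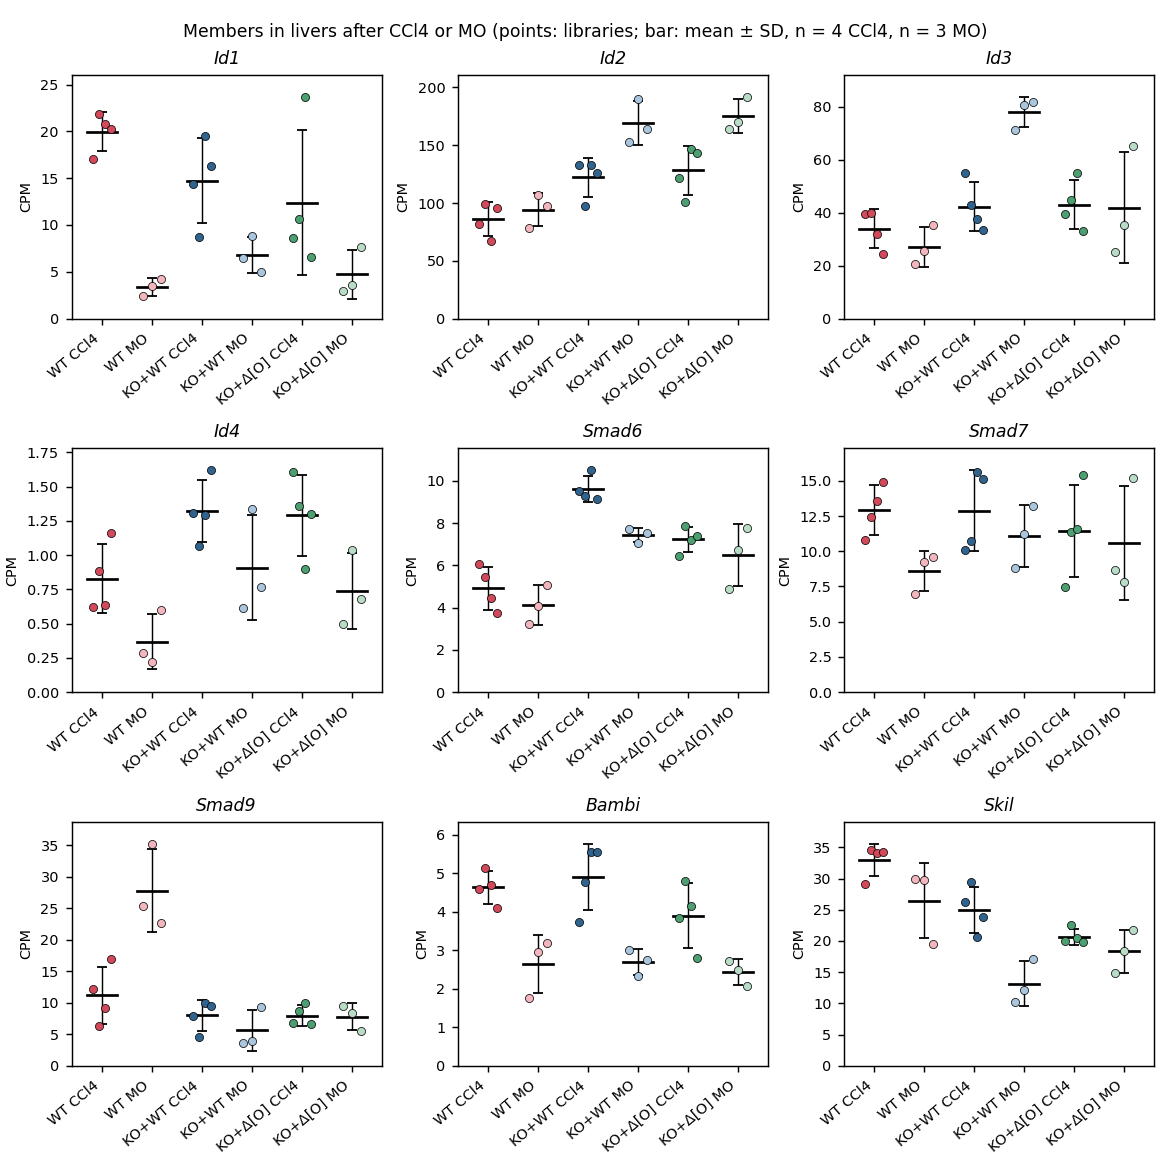
Levels of the 9 members in wild-type (WT), Hmgb1ΔHepΔMye + WT HMGB1 (KO+WT) and Hmgb1ΔHepΔMye + Δ[O] HMGB1 (KO+Δ[O]) livers, in CPM on linear axes that start at 0; points are libraries and bars give the mean ± SD (n = 4 after CCl4, n = 3 after MO). Id1 and Bambi are higher after CCl4 in WT, KO+WT and KO+Δ[O] livers alike, and Smad9 is high (22.7 to 35.2 CPM) in wild-type MO livers alone.

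Set against wild-type livers, the Hmgb1ΔHepΔMye livers given WT HMGB1 differed at 6 of 9 members already under MO, where 24.2% of all genes passed (12.7% higher, 11.5% lower): Id3, Id2, Smad6 and Id4 were higher and Smad9 and Skil lower. The median over the 9 members was 0.85 against 0.03 for all genes. Smad9 had 3.55, 3.97 and 9.33 CPM in these livers, against 25.3, 35.2 and 22.7 CPM in wild-type livers (log2 -2.29, SE 0.39, edgeR adjusted p = 0.000303). Id3 had 71.4, 80.9 and 81.9 CPM, against 20.7, 25.5 and 35.5 CPM in wild-type livers (log2 1.52, SE 0.29, edgeR adjusted p = 0.000924). Neither pair of groups came near to overlapping. Id2 had 153, 190 and 164 CPM, against 78.6, 107 and 97.2 CPM in wild-type livers (log2 0.85, SE 0.17, edgeR adjusted p = 0.00122). Smad6 had 7.71, 7.07 and 7.51 CPM, against 3.21, 4.10 and 5.08 CPM in wild-type livers (log2 0.85, SE 0.20, edgeR adjusted p = 0.0035). Skil had 10.2, 12.2 and 17.1 CPM, against 30.0, 29.8 and 19.5 CPM in wild-type livers (log2 -1.0, SE 0.19, edgeR adjusted p = 0.000725). These 5 calls held in each fit that left out 1 library. Id4, with 16 to 32 counts in these livers and 4 to 13 counts in wild-type livers, also passed (log2 1.26, SE 0.42, edgeR adjusted p = 0.0333). It lost its call without wild-type library 1 (0.131), wild-type library 2 (0.136) or knockout library 2 (0.165; range over all alternatives 0.008 to 0.165). Id1 did not pass, at 6.51, 8.78 and 5.00 CPM in the knockout livers and 2.43, 3.44 and 4.25 CPM in wild-type livers (log2 1.00, SE 0.44, edgeR adjusted p = 0.109). Its groups do not overlap, and it passed with only the compared groups fitted (edgeR adjusted p = 0.0379). It also passed with library totals in place of TMM factors (0.0437), a setting that puts the median of all genes at 0.283. Smad7 and Bambi did not pass either (log2 0.37 and 0.04). Hmgb1ΔHepΔMye livers with Δ[O] HMGB1 were not tested against wild-type livers. Under MO they overlapped wild-type livers for Id3 (25.0 to 65.4 CPM), Skil (14.8 to 21.8 CPM), Smad6 (4.89 to 7.79 CPM) and Id4. They did not overlap for Id2 (164 to 192 CPM) and Smad9 (5.47 to 9.50 CPM).

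Other lists differed between the same MO livers, where 12.7% of all genes were higher in the knockout and 11.5% lower. Neutrophil markers, of which 4 of 5 tested were higher, summed to 53.8 to 77.5 CPM in Hmgb1ΔHepΔMye + WT HMGB1 livers and 10.6 to 14.3 CPM in wild-type livers, and 6 of 7 lymphocyte markers were also higher. Of the pathway genes, 3 of 13 ligands were higher and none lower, namely Gdf6 (log2 2.12), Tgfb1 (0.58) and Bmp5 (0.56). Smad3 (0.96) and Smad1 (0.42) were the 2 of 5 receptor and common SMADs that were higher. The BMP-binding protein gene Bmper was higher, at 3.26 CPM in the knockout livers and 0.577 CPM in wild-type livers (log2 2.48). Junb stood at 99.8 CPM in the knockout livers and 20.3 CPM in wild-type livers (log2 2.30), and Ctgf was lower (-1.65), the only genes of 10 other targets that passed. The part of the cell makeup in the members' differences was not tested.

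After CCl4, 2 of 9 members differed between Hmgb1ΔHepΔMye + WT HMGB1 and wild-type livers, against 28.8% of all genes (15.8% higher, 13.0% lower). Smad6 had 9.51, 9.28, 10.5 and 9.12 CPM in Hmgb1ΔHepΔMye + WT HMGB1 livers, against 6.05, 5.43, 4.44 and 3.73 CPM in wild-type livers (log2 0.96, SE 0.16, edgeR adjusted p = 0.000236). Smad6 was thus higher in the livers with WT HMGB1 than in wild-type livers under MO and CCl4 alike. Id2 averaged 122 ± 16.9 CPM in the knockout livers and 86.1 ± 14.7 CPM in wild-type livers (SD, n = 4 each; log2 0.51, SE 0.15, edgeR adjusted p = 0.0135), with overlap. Libraries with the same number deviated together between the 3 CCl4 groups. With the replicate number as a block in those groups, Smad6 kept its call, Id2 lost it (log2 0.45, edgeR adjusted p = 0.0707) and Id3 (log2 0.45, 0.0381) and Skil (log2 -0.38, 0.0208) passed. Over all alternatives the adjusted p ranged from 0.00555 to 0.0707 for Id2, 0.0381 to 0.711 for Id3 and 0.0208 to 0.274 for Skil. Id2 also lost its call without wild-type library 3 (0.0527), and Skil passed without knockout library 3 (0.044). Macrophage markers (8 of 9 higher), endothelial markers (8 of 10 higher) and proliferation markers (6 of 6 higher) moved in the same comparison, with macrophage sums of 1310 to 1410 CPM in the knockout livers and 458 to 665 CPM in wild-type livers. Stellate or myofibroblast markers (4 of 10 higher) summed to 1560 to 2250 CPM in the knockout livers and 440 to 945 CPM in wild-type livers. The part of these markers in the Smad6 and Id2 differences was not tested. Of the pathway lists, 4 of 13 ligands were higher, among them Tgfb1 (log2 0.99), and 1 was lower, Tgfb2 (-0.99). Ctgf (-1.32) and Hamp2 (-1.96) were among the other targets that were lower.

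The CCl4 response itself differed between Hmgb1ΔHepΔMye + WT HMGB1 and wild-type livers at 2 members, against 13.5% of all genes (6.85% higher, 6.64% lower). For Smad9 the response in Hmgb1ΔHepΔMye + WT HMGB1 livers (log2 0.49) exceeded that in wild-type livers (-1.32) by 1.81 (SE 0.50, edgeR adjusted p = 0.0207). For Id3 the response in those knockout livers (-0.89) was below that in wild-type livers (0.32) by a log2 difference of -1.20 (SE 0.38, edgeR adjusted p = 0.0417). After CCl4 Smad9 stood at 8.01 ± 2.49 CPM in the knockout and 11.1 ± 4.51 CPM in wild-type livers (SD, n = 4 each), and Id3 at 42.3 ± 9.37 CPM in the knockout and 33.9 ± 7.33 CPM in wild-type livers, with overlap in both genes. The Smad9 difference lost its call without wild-type MO library 2 (0.0663) or knockout MO library 1 (0.0622) or 2 (0.066; range over all alternatives 0.00265 to 0.0663), and the Id3 difference kept it in 4 of 14 fits that left out a library (0.0596 to 0.122 in the other 10, range over all alternatives 0.0166 to 0.122). The difference in response of Id1 did not pass (log2 -1.44, SE 0.56, edgeR adjusted p = 0.0979; range 0.0159 to 0.23).

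**Figure D4:**
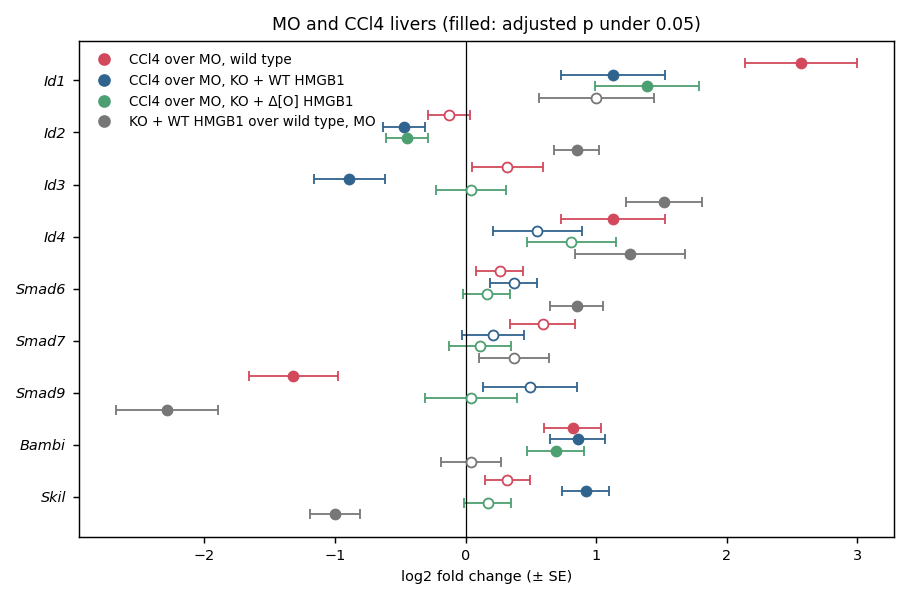
Log2 fold changes (x axis, ± SE) of the 9 members for CCl4 over MO in wild-type, Hmgb1ΔHepΔMye + WT HMGB1 and Hmgb1ΔHepΔMye + Δ[O] HMGB1 livers, and for Hmgb1ΔHepΔMye + WT HMGB1 over wild-type livers under MO; filled symbols passed at an adjusted p below 0.05. Id1 and Bambi lie right of 0 and are filled in every CCl4 comparison. The comparison of Hmgb1ΔHepΔMye + WT HMGB1 with wild-type livers under MO shares its MO libraries with the CCl4 comparisons of both groups.

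Δ[O] HMGB1 and WT HMGB1 were compared within the Hmgb1ΔHepΔMye mice, and no member passed in edgeR after CCl4 (2.31% of all genes passed, 0.113% higher and 2.19% lower) or MO (0% passed), nor did any member's CCl4 response differ (0% passed). At an unadjusted p below 0.05 there were 1, 2 and 2 members, and DESeq2 called 0 in each. Over all genes under MO, 1549 of 14129 had an unadjusted p below 0.05 and DESeq2 called 21, and for the difference in response these counts were 2098 and 85. After CCl4, Smad6 had 6.43, 7.86, 7.21 and 7.41 CPM with Δ[O] HMGB1, against 9.51, 9.28, 10.5 and 9.12 CPM with WT HMGB1. The groups do not overlap, but the difference did not pass (log2 -0.41, SE 0.16, edgeR adjusted p = 0.218). Under MO, Id3 had 25.0, 35.4 and 65.4 CPM with Δ[O] HMGB1, against 71.4, 80.9 and 81.9 CPM with WT HMGB1 (log2 -0.90, SE 0.29, edgeR adjusted p = 0.35). Skil under MO was at 14.8, 18.4 and 21.8 CPM with Δ[O] HMGB1 and at 10.2, 12.2 and 17.1 CPM with WT HMGB1 (log2 0.48, SE 0.19, edgeR adjusted p = 0.4), and passed without WT HMGB1 library 3 alone (0.0359; range over all alternatives 0.0359 to 0.937). Smad9 was low in both constructs under MO, at 5.47 to 9.50 CPM with Δ[O] HMGB1 and 3.55 to 9.33 CPM with WT HMGB1.

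Ligands of the pathway rose with CCl4 in wild-type livers and in Hmgb1ΔHepΔMye livers with either construct. With CCl4, 7 of 13 ligands rose in wild-type livers, 9 in Hmgb1ΔHepΔMye + WT HMGB1 livers and 3 in Hmgb1ΔHepΔMye + Δ[O] HMGB1 livers, and none fell. Among all genes 22.8%, 23.3% and 12.9% were higher after CCl4, in the same order of comparisons. These comparisons share no library. Tgfb3 rose in each, by a log2 of 2.23, 2.17 and 1.74. Pmepa1, a TGF-β-induced inhibitor of receptor SMADs, also rose in each, by a log2 of 1.31, 1.33 and 1.19. The receptor Acvr2b fell in each, by a log2 of 1.43, 1.01 and 1.07. Ctgf reached 29.2 CPM after CCl4 in wild-type livers, against 8.52 CPM after MO (log2 1.78), and Hamp2, a hepcidin gene, fell to 3.78 CPM after CCl4 in Hmgb1ΔHepΔMye + WT HMGB1 livers, against 30.6 CPM after MO (log2 -3.02). The E protein Tcf4 rose in each of these comparisons (log2 0.45, 0.99 and 0.51).

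In the fibrosis livers, the library numbered 2 in each group stood apart for several members. Smad9 was at 6.33 CPM in [H] library 2, 2.61 CPM in [O] library 2 and 1.81 CPM in BSA library 2, while the other 6 fibrosis libraries ranged from 15 to 46.8 CPM. Skil was highest in the same libraries, at 41.1, 47.5 and 89.8 CPM, with 17.6 to 29.2 CPM in the others, and Id4 likewise, at 2.51, 2.90 and 3.52 CPM with 1.2 to 1.46 CPM in the others. Id3 was at 140 CPM in [H] library 2 and 180 CPM in BSA library 2, but at 36.1 CPM in [O] library 2. Over the 18 libraries of this table Smad9 and Skil ran opposite to each other, as a description with Pearson's r of -0.82 on log2 CPM, also after removing group means. In the 21 CCl4 and MO libraries the same pair had r = 0.47, and 0.09 after removing group means. Same-numbered fibrosis libraries also deviated together over all genes, with correlations of 0.187 to 0.708 over the 9 pairs.

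No member passed for [H] HMGB1 against BSA, [O] HMGB1 against BSA or [O] against [H] HMGB1 in fibrosis livers by edgeR's test, where 0% of all 13487 genes passed in each. At an unadjusted p below 0.05 there were 2, 1 and 2 members, and DESeq2 called 0, 0 and 1. Over all genes 1448, 727 and 1413 had an unadjusted p below 0.05 and DESeq2 called 3, 5 and 278. With the replicate number as a block within the fibrosis groups, and without the libraries numbered 2, edgeR again called 0 members. Id2 had 164, 237 and 183 CPM with [H] HMGB1, against 109, 89.2 and 114 CPM with BSA. All [H] libraries were the higher (log2 0.91, SE 0.21), yet the edgeR adjusted p was 0.414. With [O] HMGB1 Id2 had 110, 99.0 and 140 CPM, below every [H] library (log2 -0.74, SE 0.21, edgeR adjusted p = 0.154), and DESeq2 gave 0.0478 (range over all alternatives 0.0478 to 0.644). Id1 had 42.9, 55.3 and 15.5 CPM with [H] HMGB1, 21.8, 17.3 and 14.2 CPM with [O] HMGB1 and 22.9, 26.8 and 15.5 CPM with BSA, with overlap between all 3 groups.

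In resolution livers, no member passed for [SO3] HMGB1 or the HMGB1 antibody against BSA by edgeR (0% of all genes passed in each). Groups did not overlap for Id1, Id2, Id3 and Smad7 with [SO3] HMGB1, and for Id1, Id2, Id3 and Bambi with the antibody. The share of all genes without overlap was not counted, so this only describes the members' libraries. At an unadjusted p below 0.05 there were 3 members for [SO3] HMGB1 and 2 for the antibody, and DESeq2 called 3 and 0. Over all genes 812 and 279 had an unadjusted p below 0.05 and DESeq2 called 80 and 7. Id1 had 12.5, 10.1 and 9.99 CPM with [SO3] HMGB1 and 7.72, 7.52 and 6.55 CPM with the antibody, against 3.29, 2.87 and 2.01 CPM with BSA. Both treated groups lay wholly above BSA, by a log2 of 1.98 (SE 0.38, edgeR adjusted p = 0.17) and 1.39 (SE 0.38, edgeR adjusted p = 1). Id2 had 204, 115 and 188 CPM with [SO3] HMGB1 and 159, 147 and 147 CPM with the antibody, against 94.4, 87.8 and 74.9 CPM with BSA (log2 0.98 and 0.81, SE 0.21 each, edgeR adjusted p = 0.193 and 1). Smad7 had 27.9, 21.7 and 22.1 CPM with [SO3] HMGB1, against 11, 11.1 and 14.6 CPM with BSA (log2 0.97, SE 0.22, edgeR adjusted p = 0.224). Id3 had 50.2, 43.1 and 55.4 CPM with [SO3] HMGB1 and 44.2, 52.7 and 44.5 CPM with the antibody, against 29.5, 26.3 and 33.9 CPM with BSA (log2 0.73 and 0.66, SE 0.46 each, edgeR adjusted p = 0.959 and 1). Bambi had 6.02, 7.74 and 5.86 CPM with the antibody, against 5.82, 4.89 and 3.39 CPM with BSA (log2 0.46, SE 0.32, edgeR adjusted p = 1). With the antibody Smad7 was at 12.8, 11.4 and 14.6 CPM, overlapping BSA (log2 0.09, edgeR adjusted p = 1). DESeq2 gave the [SO3] differences adjusted p-values of 0.000467 for Id1, 0.00394 for Id2 and 0.00807 for Smad7. Over all alternatives the ranges were 0.000467 to 0.921, 0.00394 to 0.921 and 0.00807 to 1, so the Id2 and Smad7 calls depend on the tool. The Id1 call depends on the fit as well. In edgeR Id1 also passed with the 2 groups fitted alone (0.0247) and with the replicate number as a block (0.0496). Same-numbered libraries of these groups correlated at -0.118 to 0.143 only, so their numbers were not taken to pair.

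**Figure D5:**
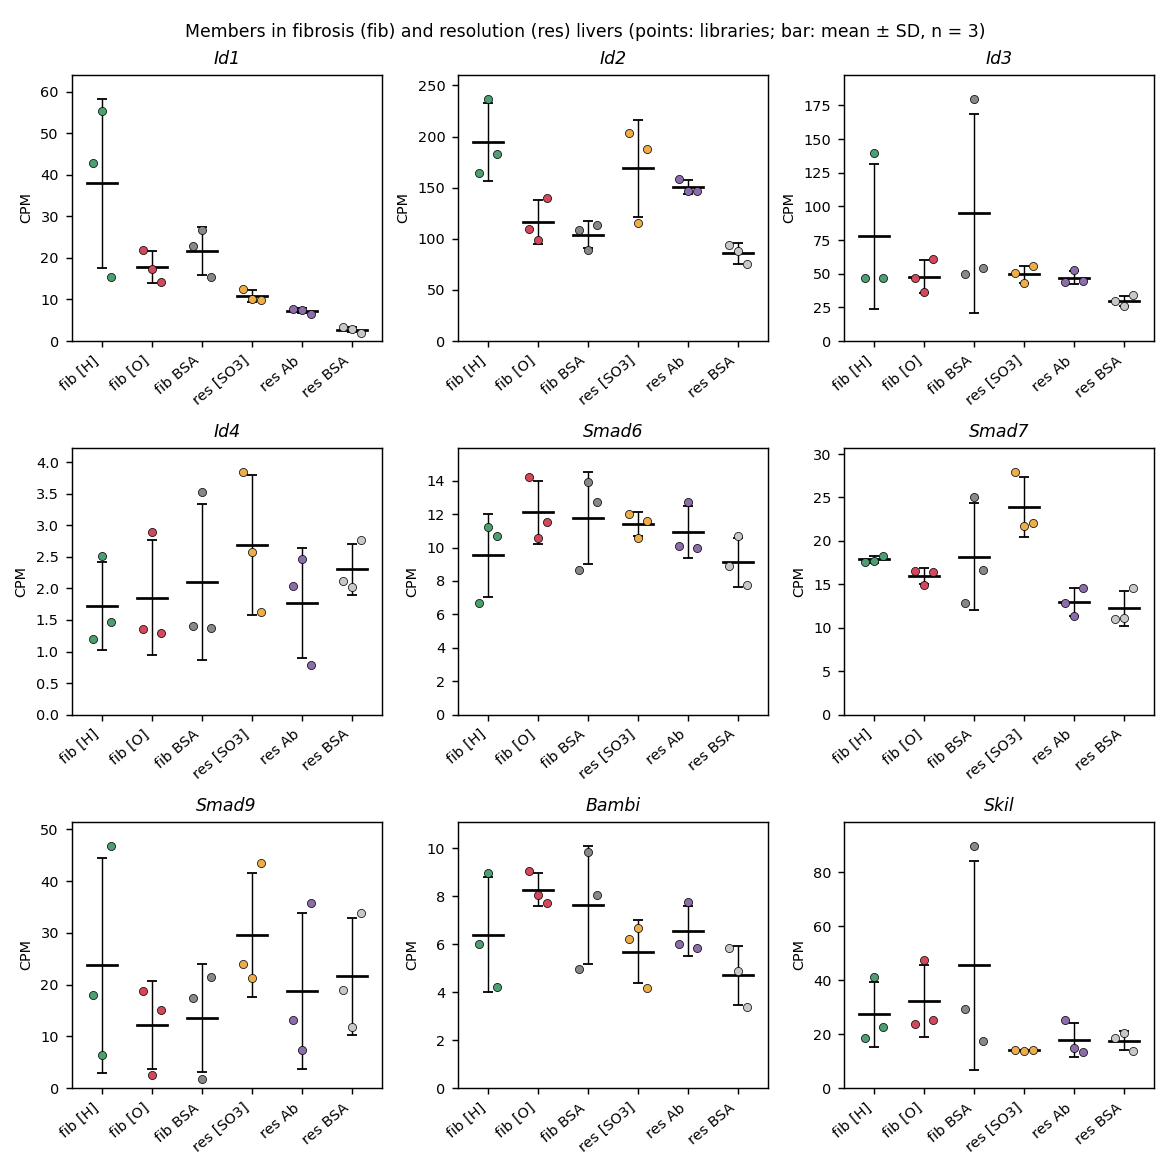
Levels of the 9 members in fibrosis (fib) and resolution (res) livers given [H], [O] or [SO3] HMGB1, an HMGB1 antibody (Ab) or BSA, in CPM on linear axes that start at 0; points are libraries and bars give the mean ± SD (n = 3). Id1 lies at 2.01 to 3.29 CPM in resolution livers with BSA, below every other liver of this set.

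Resolution livers with BSA had lower Id1 and Id3 than fibrosis livers with BSA, 2 of 9 members with 9.0% of all genes passing (2.40% higher, 6.60% lower). Id1 had 3.29, 2.87 and 2.01 CPM in resolution livers, against 22.9, 26.8 and 15.5 CPM in fibrosis livers (log2 -2.97, SE 0.39, edgeR adjusted p = 0.00486). Every resolution library was far below every fibrosis library. The call was lost without resolution library 2 (0.0692) or 3 (0.0523; range over all alternatives 1.77e-10 to 0.0692). Id3 had 29.5, 26.3 and 33.9 CPM in resolution livers, against 50.1, 180 and 54.3 CPM in fibrosis livers (log2 -1.66, SE 0.47, edgeR adjusted p = 0.0406). Without BSA fibrosis library 2 its adjusted p was 0.215, and without the libraries numbered 2 of all 3 fibrosis groups it was 0.0107 at a log2 of -0.83 (range 0.00477 to 0.215). It was also lost without any 1 resolution library (0.106 to 0.137). Skil had 18.4, 20.6 and 13.8 CPM in resolution livers, against 29.2, 89.8 and 17.6 CPM in fibrosis livers (log2 -1.36, SE 0.49, edgeR adjusted p = 0.0798), and passed without BSA fibrosis library 1 (0.0471) or 3 (0.0275; range 0.0275 to 0.575). Without BSA fibrosis library 2, the one at 89.8 CPM, its log2 difference was -0.40 (0.575). Smad7 (log2 -0.57, edgeR adjusted p = 0.0974) passed without BSA fibrosis library 1 (0.027; range 0.027 to 0.444). Of the pathway lists none had a gene that rose: 4 of 13 ligands fell, among them Inhbb (log2 -3.31) and Tgfb2 (-2.70), and 4 of 8 antagonists fell, among them Fst (-3.69) and Bmper (-3.49). Of the 10 stellate or myofibroblast markers 5 fell, with sums of 319 to 451 CPM in resolution livers and 646 to 1780 CPM in fibrosis livers, and their part in the members' changes was not tested.

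Per length of annotated exon, Id2, Id3 and Id1 led the members in 10 of the 12 liver groups. In resolution livers with BSA and wild-type livers with MO, Smad9 took the third place. In wild-type CCl4 livers the mean levels per kilobase were 35.3 CPM for Id2, 18.9 for Id3, 17.2 for Id1, 3.40 for Skil, 2.86 for Smad7, 2.07 for Smad9, 1.53 for Smad6, 0.914 for Bambi and 0.215 for Id4. In wild-type MO livers the order was Id2 (38.6 CPM per kilobase), Id3 (15.2), Smad9 (5.17), Id1 (2.91), Skil (2.73), Smad7 (1.90), Smad6 (1.29), Bambi (0.519) and Id4 (0.0959). Neighbours such as Id3 and Id1 after CCl4, or Id1 and Skil after MO, lie within the spread of their libraries. Id2 was first in all groups but the fibrosis livers with BSA, where Id3 led at 52.9 CPM per kilobase through library 2.

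By Pearson's r of log2 CPM over all libraries of a table, the genes most like Id1 were Cd63 (0.922), Anxa4 (0.922) and Rhoc (0.916) in the 21 CCl4 and MO livers, Mthfd1l (0.904), Dcaf15 (0.902) and Slpi (0.887) in the 18 fibrosis and resolution livers, and Gtf3a (0.941), Aste1 (0.869) and Cox5a (0.836) in the 12 cell libraries. No gene is on more than 1 of these lists. After removing group means, r with Id1 was, in the same order, 0.769, 0.675 and 0.520 in the CCl4 and MO livers. It was 0.657, 0.796 and 0.621 in the fibrosis and resolution livers and 0.949, 0.919 and 0.845 in the cells. For Skil they were AU040320 (0.885), Sestd1 (0.877) and Slc35e1 (0.874) in the CCl4 and MO livers and Trmt61a (0.956), Sptlc2 (0.951) and Mybbp1a (0.951) in the fibrosis and resolution livers. After removing group means these r values were 0.529, 0.561 and 0.403 in the CCl4 and MO livers. In the fibrosis and resolution livers they were 0.932, 0.923 and 0.950. Libraries of a group share a treatment, and these values describe likeness in these libraries alone.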

How the data were processed

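Messenger RNA was sequenced from TruSeq Stranded mRNA libraries, per the labels' protocols, with liver RNA from illustra RNAspin and cell RNA from miRNeasy micro kits. The authors deposited raw counts per gene in 3 tables, with whole numbers that sum to different totals per library. The build mm10 comes from the submitters' processing notes, which give it for the rat libraries as well; for aligner, counter and annotation the sources used here name none. Columns were matched to samples by group names and replicate numbers in the headers, and in the CCl4 and MO table by the second header line. Every count column was assigned to a sample.

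Each table was fitted once with all its groups in edgeR 4.0.16 (R 4.3.3, limma 3.58.1): filterByExpr (min.count 10, min.total.count 15), TMM factors, robust quasi-likelihood fits and tests, and Benjamini-Hochberg adjustment across all genes tested, in 21 comparisons. Log2 CPM for likeness used a prior count of 2. No pair of libraries of a group agreed within sampling noise. The ratio of chi-square to its degrees of freedom was 1.48 to 6.32 in cells and 10.8 to 235 in livers. Cell libraries thus lay much closer to sampling noise, and the p-values in cells rest on that smaller spread. Alternatives were RLE factors, DESeq2 1.42.0, no filter, only the compared groups, the replicate number as a block and each library left out. Library totals alone, the block only in groups whose numbers pair, and leaving out the libraries numbered 2 of the fibrosis groups were chosen after seeing the data.

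Replicate numbers were taken to pair libraries where every same-numbered pair's deviations from the group means correlated above 0.1: the 3 fibrosis groups (0.187 to 0.708), the 3 CCl4 groups (0.105 to 0.313), and the knockout MO groups (0.289 to 0.454). This comes from the data, since the labels name no shared animal or day.

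All 9 members are named, list genes only if they passed and were among the 3 largest changes of their list, and 3 genes most like Id1 and Skil per table. The members and lists were chosen with earlier results of these data known. Promoter sequences came from RefSeq (GRCm38.p6); 5 of 9 members are shown. Tables and plots were made with Python 3.11.15, pandas 2.3.3 and matplotlib 3.10.9. Some list genes are not reported here.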

Additional observations from a re-analysis of the deposited data

Results flagged for a closer look

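Skil in wild-type CCl4 livers had 1 library apart from the others: replicate 1 stood at 29.2 CPM and the other 3 at 34.1 to 34.6 CPM, a gap of 0.906 of the group's range. It was the 1 such case in 27 groups of 4 examined, and chance gives about 1 in 20.

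For 2 members the CCl4 response differed between Hmgb1ΔHepΔMye livers given WT HMGB1 and wild-type livers in edgeR's interaction test. The log2 difference of responses was 1.81 for Smad9 (adjusted p = 0.0207) and -1.20 for Id3 (adjusted p = 0.0417).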

How the results depend on the processing

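No member's difference that passed changed sign under any alternative run. Of 1141 member differences under alternatives other than leaving out a library, 1099 kept their side of the threshold, 26 newly passed and 16 were lost; of 1341 with a library left out, 1275 kept it, 11 newly passed and 55 were lost. The number of members that passed moved as follows. With DESeq2 it was 0 for [H] HMGB1 against BSA in cells (1 in edgeR), 1 for [O] against [H] HMGB1 in fibrosis and 3 for [SO3] HMGB1 against BSA in resolution (0 each in edgeR). With only the compared groups it was 1 for that resolution comparison, 1 for resolution against fibrosis (2 with all groups) and 0 for CCl4 with Δ[O] HMGB1 (3 with all groups). Without a filter it was 1 for resolution against fibrosis and 1 for the response difference of knockout with WT HMGB1 and wild type (2 each with it). With library totals it was 8 for CCl4 in wild-type livers (4 with TMM). With a replicate block over whole tables it was 0 for [H] HMGB1 against BSA in cells and 1 for [SO3] HMGB1 in resolution; the block moved no other count of members by over 1.5 times.

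With 1 library left out, the members that passed numbered 0 to 1 for [H] HMGB1 and 5 to 6 for [O] HMGB1 against BSA in cells, 3 to 6 for [SO3] against [O] HMGB1, 0 to 4 for resolution against fibrosis, 3 to 4, 4 to 5 and 0 to 3 for CCl4 in wild-type, WT HMGB1 and Δ[O] HMGB1 livers, 1 to 3 and 5 to 6 for knockout against wild type under CCl4 and MO, 0 to 1 for Δ[O] against WT HMGB1 under MO and for their response difference, and 0 to 3 for that of knockout and wild type. The cause of these changes was not tested.

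Elsewhere replicate numbers did not pair libraries (same-number correlations of -0.182 to 0.0716 in cells). The library most like each one carried its own number in 1 of 12, 12 of 18 and 10 of 21 libraries of the cells, the fibrosis and resolution livers and the CCl4 and MO livers. Few counts limit what can be said of Smad9 and Bambi in cells and Id4 in livers, and the cause of the few counts was not tested.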
